A study of Mus musculus with 22 samples.

Results

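Short structural loops were taken as the chromatin loops that the deposited loop table puts in the category structural and that span at most 200 kb between their anchors. The rule uses the category and the size of a loop and none of its strengths. It found 2029 loops, which were 41.9% of the 4837 structural loops (95% Wilson interval 40.6 to 43.3%) and 12.4% of all 16370 loops. All 2029 had a strength above 0 in each of the 8 maps, and no filter on low values was used. They came from in situ Hi-C, a genome-wide map of contacts made by joining nearby pieces of chromatin, in G1E-ER4 cells, a subline of the Gata1-null mouse proerythroblast line G1E. The cells make CTCF only as a fusion with mCherry and an auxin-inducible degron (AID), and all of them, the controls too, express OsTiR, through which auxin triggers loss of the fusion. OsTiR was linked to GFP, and for ana/telophase to a GFP with a mitotic degron, which the other stages did not carry.

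All cells, those without auxin included, were arrested in prometaphase with nocodazole, and all were gated on mCherry, high for -auxin and low for +auxin samples. Prometaphase cells were sorted by DNA content and the mitotic antigen pMPM2, ana/telophase cells by DNA content and lowered GFP, and G1 cells by DNA content. Prometaphase cells were taken at release (0 min), and the later stages were ana/telophase at 30 min, early-G1 after 60 min and mid-G1 after 120 min, where the protocol in the labels gives a shorter time for ana/telophase than the sample titles do. The 18 libraries cover these 8 conditions, of which both mid-G1 conditions have 3 libraries and the remaining 6 conditions 2. The loop table used here holds values of maps in which the libraries of a condition were merged, so every loop has 1 value per condition there, and no replicate error and no test between treatments can be given from it. The number of contacts behind a single loop is unknown. Loop strength averages, over the summit pixel and those around it, the ratio of observed contacts to those expected from the local surroundings, so that a strength of 1 means no more contacts than in the surroundings.

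CTCF is a zinc finger protein that binds DNA at an asymmetric motif. The ring-shaped cohesin complex is thought to extrude DNA until CTCF stops it, which leaves loops between sites whose motifs point toward each other. Such loops are dissolved in mitosis and rebuilt on entry into G1. A structural loop, as the authors define it, has sites co-occupied by CTCF and cohesin at both anchors, and at most 1 anchor with a cis-regulatory element (CRE), meaning an enhancer or promoter. A dual-function loop has CTCF and cohesin as well as CREs at both anchors, and a CRE loop has CREs at both anchors without CTCF and cohesin at both. CTCF occupancy was not measured again here.

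To show what an anchor of a short structural loop can look like in sequence, the core of the CTCF motif was searched in the mm9 genome. The core was written as 12 bases, namely CCA, any 2 bases, AGG, any base and GGC, on either strand. It is called forward where it reads so on the plus strand, and reverse where it reads so on the minus strand. None of the 5 strongest loops held exactly 1 core at each anchor, so the loops below were chosen after their values were seen. They were taken from the loops with exactly 1 core at each anchor. They are the 3 strongest convergent ones in mid-G1 -auxin cells, convergent meaning forward upstream and reverse downstream, and then the strongest of each other arrangement. Loops with more cores can be stronger, as is the tandem reverse loop around Nfe2 described below, with 2 downstream cores and a strength of 3.54. All lines give the plus strand from 5′ to 3′, with the core in capitals, so that a reverse core appears as its reverse complement.
Chromosome 2 convergent loop, upstream (chr2:35865606-35865665): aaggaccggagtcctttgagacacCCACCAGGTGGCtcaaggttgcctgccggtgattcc
Chromosome 2 convergent loop, downstream (chr2:36069720-36069779): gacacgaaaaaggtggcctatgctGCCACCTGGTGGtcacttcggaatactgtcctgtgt
Chromosome 10 convergent loop, upstream (chr10:76298588-76298647): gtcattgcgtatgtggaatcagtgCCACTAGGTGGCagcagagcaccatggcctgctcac
Chromosome 10 convergent loop, downstream (chr10:76484283-76484342): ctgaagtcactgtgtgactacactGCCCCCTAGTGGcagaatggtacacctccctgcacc
Chromosome 15 convergent loop, upstream (chr15:85441131-85441190): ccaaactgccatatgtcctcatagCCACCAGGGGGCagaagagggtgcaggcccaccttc
Chromosome 15 convergent loop, downstream (chr15:85539921-85539980): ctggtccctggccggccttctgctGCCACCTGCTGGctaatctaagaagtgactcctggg
Chromosome 11 tandem forward loop, upstream (chr11:77640877-77640936): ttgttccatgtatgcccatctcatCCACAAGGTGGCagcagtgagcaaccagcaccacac
Chromosome 11 tandem forward loop, downstream (chr11:77771594-77771653): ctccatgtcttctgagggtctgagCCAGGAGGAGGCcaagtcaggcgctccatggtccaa
Chromosome 11 tandem reverse loop, upstream (chr11:53550783-53550842): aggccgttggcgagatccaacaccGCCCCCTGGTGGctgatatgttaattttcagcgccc
Chromosome 11 tandem reverse loop, downstream (chr11:53687547-53687606): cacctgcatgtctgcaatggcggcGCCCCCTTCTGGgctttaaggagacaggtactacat
Chromosome 7 divergent loop, upstream (chr7:53532088-53532147): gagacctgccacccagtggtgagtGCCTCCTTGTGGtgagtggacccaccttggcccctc
Chromosome 7 divergent loop, downstream (chr7:53630559-53630618): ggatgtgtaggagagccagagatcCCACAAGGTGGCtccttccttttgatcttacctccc

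The convergent loop on chromosome 2 joined 35860001-35870000 and 36060001-36070000, both outside protein-coding genes, and spanned 200 kb. Without auxin its strength was 1.08 in prometaphase, then 2.29, 2.95 and 3.93 over the 3 later stages. In +auxin cells the same 4 maps gave 0.889, 1.15, 1.03 and 0.996. It was higher at each stage than at the one before without auxin, and stayed near the level of its surroundings in every +auxin map.

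The convergent loop on chromosome 10 had its upstream core in an intron of Pcbp3, which encodes an RNA-binding protein, and its downstream core in an exon of Gm10787. It had 3.92 in mid-G1 without auxin and 1.53 with it. The convergent loop on chromosome 15, of 90 kb, had reached 3.00 by ana/telophase without auxin, where it was 1.28 with auxin. It was at 3.83 by early-G1, its level in mid-G1 too, which was 3.82 without and 1.48 with auxin.

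The other arrangements also held strong loops. These labels rest on matches of the core in the summit bins, which were not checked for CTCF binding. Of all bins of 10 kb with known sequence, 8.48% hold a match. The tandem forward loop had its cores in introns of Myo18a and Sez6, with 4.24 in mid-G1 without auxin and 1.60 with it. The tandem reverse loop had its downstream core in an intron of Slc22a5, which encodes a carnitine transporter, and enclosed the start of Irf1, a transcription factor of the interferon response. It had 2.61 in mid-G1 without auxin and 1.37 with it. The divergent loop, whose downstream anchor bin held the start of the muscle transcription factor gene Myod1, had 2.76 without and 1.60 with auxin. The log2 changes of these 6 loops in mid-G1 lay between -1.98 for the chromosome 2 loop and -0.79 for the divergent one. They were picked by the -auxin value that enters the change, and 96.0% of all short structural loops were weaker with auxin, so nothing is read from their direction.

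Over the short structural loops as a whole, loops were near background in prometaphase and became stronger at each stage in -auxin cells. The median strength was 1.02 in prometaphase and, at the 3 later stages in turn, 1.44, 1.76 and 1.92, with SDs over the medians of the 20 chromosomes of 0.030, 0.048, 0.067 and 0.15. In +auxin cells it was 0.970, 1.08, 1.17 and 1.19, with SDs of 0.029, 0.032, 0.049 and 0.045. These SDs measure how chromosomes of 1 map differ, and say nothing of how cultures differ. In mid-G1 the ranges of single loops overlapped between treatments only in part, with the central 50% of loops between 1.54 and 2.48 without auxin and between 0.981 and 1.41 with auxin. A mid-G1 strength below 1 was found in 2.71% of the loops without and 26.6% with auxin, while in prometaphase the shares were 46.0% and 55.5%.

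**Figure D1:**
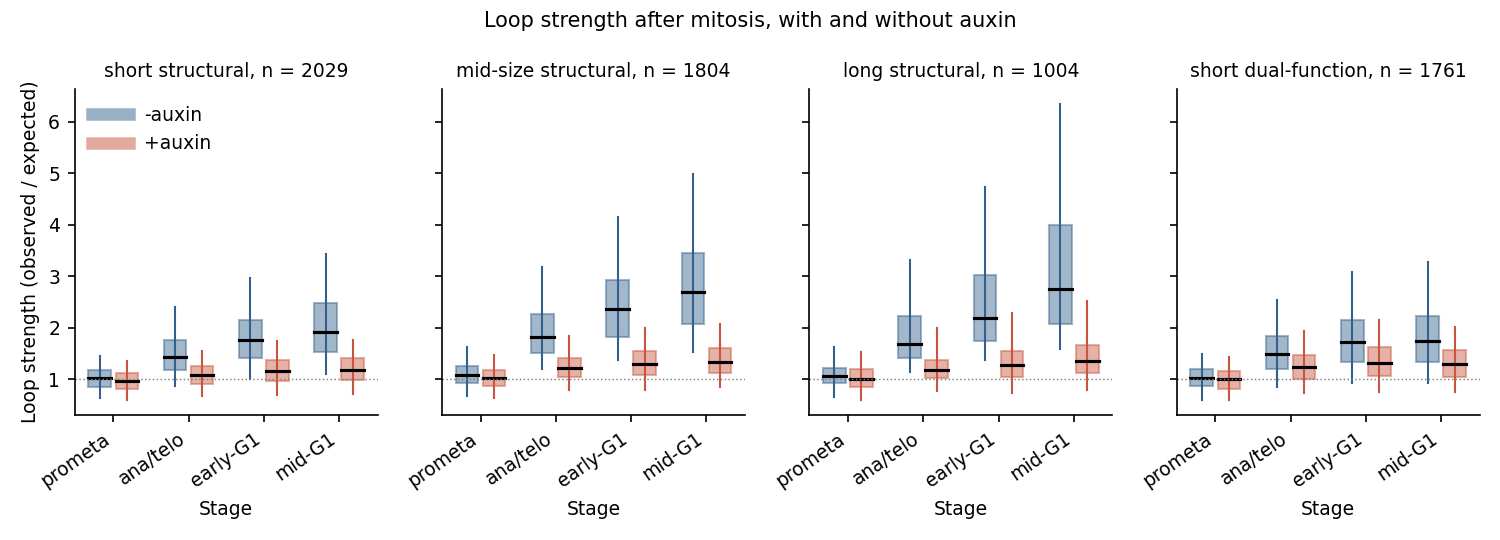
Loop strength (observed over expected contacts) by stage for -auxin cells (blue) and +auxin cells (red) in 4 loop groups, with the median (black line), the central 50% (box) and the 5th to 95th percentile (thin line) over loops in replicate-merged maps. In short structural loops the mid-G1 median is 1.92 without and 1.19 with auxin, while both prometaphase medians lie near 1.

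The change of a single loop was taken as the log2 ratio of its +auxin to its -auxin strength, to which no pseudocount was added. Its median over the short structural loops went from -0.07 for prometaphase (SD 0.06 over chromosomes) and -0.42 for ana/telophase (SD 0.07) to -0.61 for early-G1 (SD 0.09) and -0.70 for mid-G1 (SD 0.13). Of the 2029 loops, 1195 or 58.9% were weaker with auxin in prometaphase, near the 54.4% of all loops. At the later stages 1837, 1912 and 1948 were, which is 90.5%, 94.2% and 96.0%, beside 73.6%, 74.7% and 77.1% of all loops. A loop was counted as past the fold where its log2 change was -0.5 or lower. In prometaphase 12.6% of the short structural loops passed it, beside 12.9% of all loops, so that their share stood at the background. The share was 40.9% in ana/telophase, beside 25.4% of all loops, 58.4% in early-G1, beside 36.5%, and 69.0% in mid-G1 (95% Wilson interval 66.9 to 70.9%), beside 42.0%. In the other direction, 8 loops or 0.394% had a mid-G1 log2 change of 0.5 or higher, beside 4.06% of all loops.

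Most of these loops were called in -auxin maps, the same maps that enter the change, and the part of that choice in the change was not tested. The 118 loops called in both treatments had a median mid-G1 log2 change of -0.37, and the 52 called only in +auxin cells one of 0.17.

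Within single loops, strength was higher at every stage than at the stage before in 1364 loops without auxin, which is 67.2% (95% Wilson interval 65.2 to 69.2%), beside 47.6% of all loops. With auxin this held for 409 loops or 20.2%, beside 21.7% of all loops. In the last step, from early-G1 to mid-G1, 79.7% of the short structural loops were stronger at the later stage without auxin and 55.6% with auxin, beside 61.6% and 48.3% of all loops. In +auxin cells 1592 loops or 78.5% were stronger in mid-G1 than in prometaphase, beside 85.7% of all loops, and in -auxin cells 2004 or 98.8% were, beside 93.7%. The mean over the short structural loops differed between these stages by 0.233 with auxin and by 1.03 without.

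The timing of that rise was expressed as the rise of the mean strength from prometaphase to a stage in percent of its rise to mid-G1. Without auxin, short structural loops had completed 46.4% of it by ana/telophase (SD 3.01 over chromosomes) and 78.6% by early-G1 (SD 3.79). Structural loops of over 200 to 500 kb, called mid-size here, gave 48.3% and 77.7%, and neither value differed from that of the short loops by more than the SD of the difference over chromosomes, of 3.29 and 3.76 percentage points. Long structural loops, of over 500 kb, were later, with 37.8% and 67.2%, on all 20 chromosomes. Short dual-function loops, of up to 200 kb, were earlier, with 64.5% and 94.7%, again on all 20 chromosomes. These counts of chromosomes are descriptions, as chromosomes of 1 merged map are not replicates.

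Without auxin, short structural loops were called after prometaphase only. Of the short structural loops, none was called in prometaphase, 341 were first called in ana/telophase, 820 at the early-G1 stage and 816 at the mid-G1 stage. By ana/telophase 16.8% had been called, close to the 17.7% of all loops, and by early-G1 57.2%, beside 51.9%. With auxin, 170 were called at any stage, and the counts of first calls in the same order were 1, 21, 113 and 35. That total was 8.38%, beside 28.9% of all loops. In all, 1859 loops or 91.6% (95% Wilson interval 90.3 to 92.8%) were called only without auxin, beside 71.1% of all loops. The share was 96.3% (95.4 to 97.1%) in mid-size and 97.7% (96.6 to 98.5%) in long structural loops, and 65.4% (63.1 to 67.6%) in short dual-function loops.

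**Figure D2:**
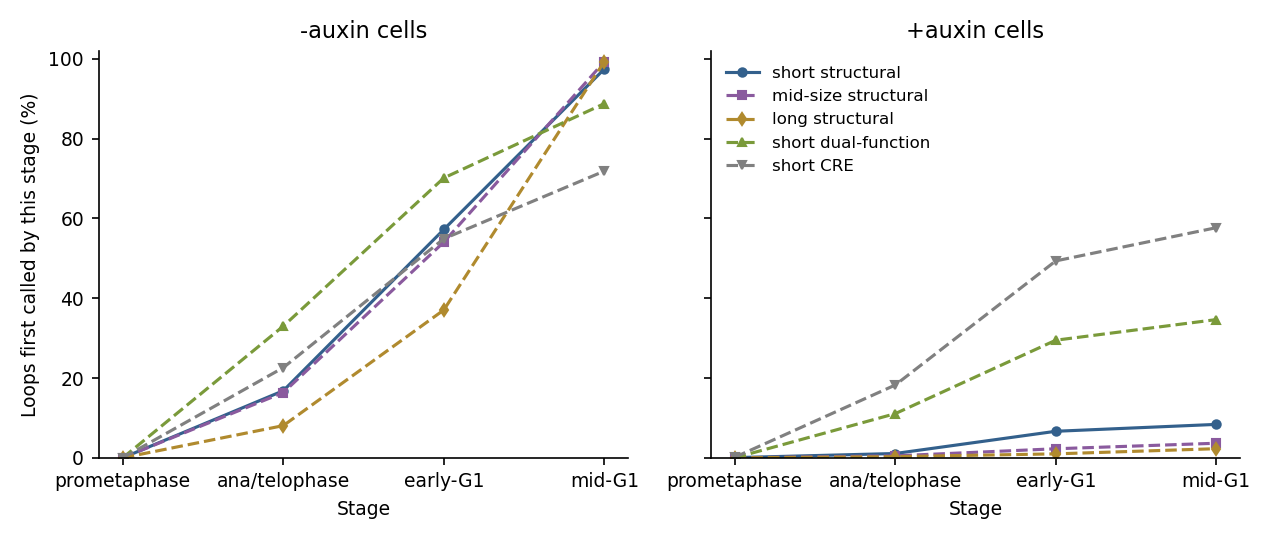
Cumulative percentage of loops first called by each stage in -auxin cells (left) and +auxin cells (right), for short structural loops (solid line) and 4 other loop groups. Short structural loops reach 97.4% without and 8.38% with auxin by mid-G1.

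Loops called early were also the stronger ones in mid-G1. For those first called in ana/telophase the mid-G1 median was 2.76 without and 1.31 with auxin, those first called in early-G1 1.99 and 1.19, and those first called in mid-G1 1.75 and 1.14. Their median mid-G1 log2 changes were -1.05, -0.73 and -0.61. The calls rest on the -auxin maps, so the grouping in part sets the order of these medians. Spearman's rho between ana/telophase and mid-G1 -auxin strength was 0.87 over the 2029 short structural loops. The mid-G1 -auxin value is also the denominator of the change, so nothing is read from the order of the changes. The median prometaphase -auxin strength of the 3 groups of first calls, at 1.10, 1.02 and 1.00, differed by little.

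Size separated the short structural loops among themselves. They spanned 70 to 200 kb, with a median of 120 kb, and 286 of them (14.1%) had the smallest size of 70 kb. Of the loops 1913 had a summit of 10 kb bins and 116 one of 25 kb bins. Among those with 10 kb summits, the 460 loops of 70 to 80 kb had a mid-G1 median of 1.35 without and 0.905 with auxin. The 294 loops of 90 to 100 kb had 1.86 and 1.26, the 349 loops of 140 to 160 kb had 2.24 and 1.29, and the 107 loops of 200 kb had 2.72 and 1.30. From 90 kb on, the level with auxin thus moved little with size while the level without auxin was higher in each larger class. The median mid-G1 log2 change was -0.58 at 70 to 80 kb, -0.72 at 110 to 130 kb and -1.04 at 200 kb.

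The smallest loops stood below their surroundings at the start. At 70 to 80 kb the median prometaphase strength was 0.802 without and 0.748 with auxin, whereas it lay between 1.06 and 1.11 without auxin in all larger 10 kb classes up to 200 kb. Short dual-function loops of 70 to 80 kb had the same low start, of 0.790. Loops this small lie near the diagonal of the map, where contact frequency changes steeply with distance, and the part of that in these values was not tested. Over all short structural loops, Spearman's rho between size and mid-G1 -auxin strength was 0.52 and Pearson's r 0.44 (n = 2029), and over the 1406 loops of at least 100 kb they were 0.19 and 0.20. The points of these correlations share 1 map and its depth.

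A second difference went with the summit width. By the authors' methods, loops at 25 kb were called with other settings and dropped where they overlapped a loop at 10 kb. The values of both widths are thus not like for like, and the part of that was not tested. The 116 loops with 25 kb summits had a median size of 175 kb, mid-G1 medians of 1.42 without and 1.11 with auxin, and a median log2 change of -0.34. Of them 25 passed the fold in mid-G1, against 1374 of the 1913 loops with 10 kb summits, whose median change was -0.73.

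**Figure D3:**
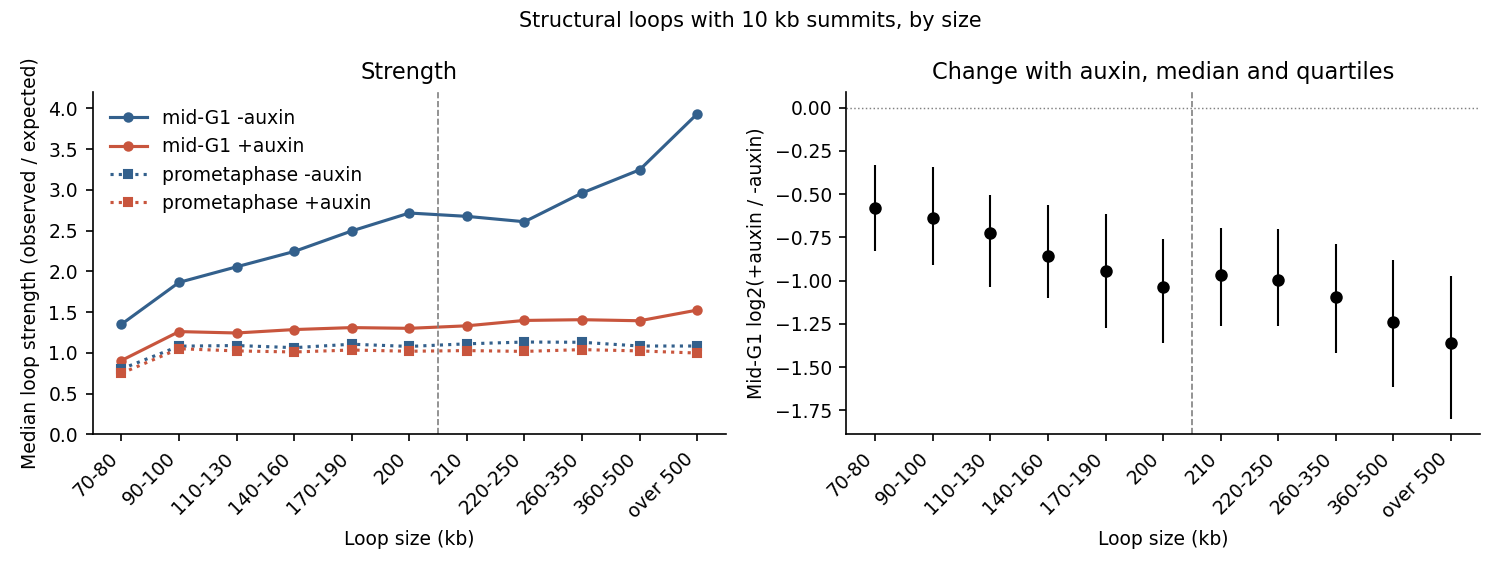
Median strength (left; observed over expected contacts) in mid-G1 and prometaphase, and mid-G1 log2 change with auxin (right; points are medians, lines the central 50% of loops), for structural loops with 10 kb summits by size in kb; the dashed line marks the limit of 200 kb. The mid-G1 median without auxin goes from 1.35 at 70 to 80 kb to 2.72 at 200 kb, and up to that size the one with auxin stays at or below 1.31.

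The limit of 200 kb did not coincide with a step. The 140 structural loops of exactly 200 kb, both summit widths together, had mid-G1 medians of 2.36 without and 1.26 with auxin and a median log2 change of -0.87. The 80 loops of 210 kb just outside it, which all had 10 kb summits, had 2.67, 1.33 and -0.97, beside 2.72, 1.30 and -1.04 for the 107 loops of 200 kb with 10 kb summits.

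Against mid-size structural loops, short structural loops were weaker without auxin and less changed with it. The median mid-G1 strength without auxin was 1.92 in short and 2.69 in mid-size loops, and lower in short loops on all 20 chromosomes. The median mid-G1 log2 change was -0.70 against -0.98, a difference of 0.27 with an SD of 0.12 over chromosomes, in the same direction on all 20. Against long structural loops, with a median of -0.99, the difference was 0.29 (SD 0.15), in the same direction on 19, and with 10 kb summits only it was 0.63. Of the 1004 long loops 488 had 25 kb summits. In prometaphase the difference from mid-size loops, of 0.03, was smaller than its SD of 0.10.

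The comparison was also made at like strength, in a range set on the mid-G1 -auxin value that is itself the denominator of the change, so that near medians there show nothing about what the gap rests on. Among loops with a mid-G1 -auxin strength between 1.5 and 3, the median log2 change was -0.74 in 1360 short, -0.77 in 1017 mid-size and -0.76 in 533 long structural loops. Against short dual-function loops, with a median of -0.46, short structural loops had a change lower by 0.24 (SD 0.13 over chromosomes), in that direction on all 20 chromosomes. That difference was 0.17 within the same range of strength, where 1030 dual-function loops had a median of -0.56. Without auxin short structural loops were stronger than short dual-function loops in mid-G1, at 1.92 against 1.74, and with auxin weaker, at 1.19 against 1.31.

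**Figure D4:**
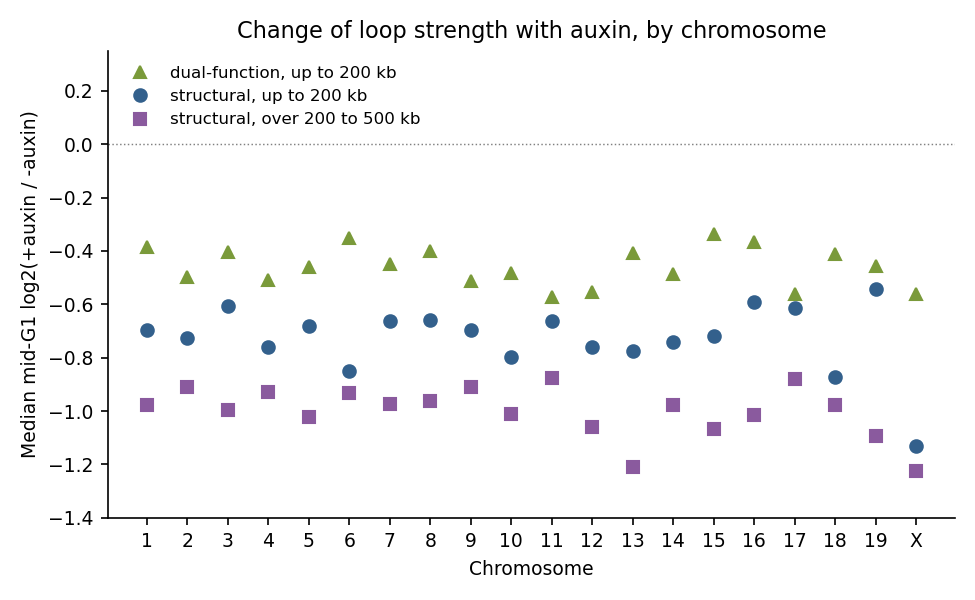
Median mid-G1 log2(+auxin / -auxin) of loop strength on each of the 20 chromosomes for structural loops up to 200 kb (circles), structural loops over 200 to 500 kb (squares) and dual-function loops up to 200 kb (triangles). On every chromosome the circles lie below the triangles and above the squares, from -1.1 on chromosome X to -0.54 on chromosome 19.

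Short structural loops were spread unevenly over the genome. Their number per 10 Mb was 7.69 over all 20 chromosomes, 2.22 on chromosome X and 16.0 on chromosome 11. Chromosome X, with 37 of them, also had the strongest median change in mid-G1, of -1.1, and a median mid-G1 -auxin strength of 2.31. The share of short structural loops among all loops of a chromosome lay between 7.96% on chromosome 16 and 17.4% on chromosome 7.

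Of the 4058 anchors, 30.0% held at least 1 CTCF core motif in the summit bin. For the 3826 anchors of 10 kb it was 28.8% (95% Wilson interval 27.4 to 30.3%), against 8.48% of all 255583 bins of 10 kb with known sequence. Anchors of mid-size structural loops of the same width held it in 29.3% (27.6 to 31.0%), those of short dual-function loops in 30.3% (28.7 to 31.8%), and those of short CRE loops in 15.0% (13.9 to 16.1%). The median GC content of the anchors was 47.0%, against a mean of 41.8% over bins. A match is a description of the letters, and an anchor without one may still hold a site that differs from this core. The authors assigned CTCF and cohesin peaks to an anchor within a window of 30 kb around its midpoint. The core was counted in the summit bin only, so the site that defines an anchor can lie outside the bin searched.

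The strand of the motif was not even. At upstream anchors 504 of 728 cores were forward, which is 69.2% (65.8 to 72.5%), and at downstream anchors 474 of 721 were reverse, which is 65.7% (62.2 to 69.1%). Mid-size structural loops had 69.1% and 72.1% (68.7 to 75.3%), and short CRE loops 59.1% (54.2 to 63.9%) and 57.9% (52.8 to 62.8%). At the downstream anchor the interval of the short structural loops overlapped that of the mid-size loops in part only. Both anchors held cores of a single strand in 172 short structural loops, of which 85 were convergent, 40 tandem forward, 30 tandem reverse and 17 divergent. The convergent share was 49.4% (42.0 to 56.8%), beside 56.4% (48.3 to 64.1%) in mid-size loops and 45.7% (38.0 to 53.7%) in short dual-function loops, with intervals that overlap. A further 41 loops held cores at both anchors with both strands at 1 of them or more, 792 loops held cores at 1 anchor only, of either strand or both, and 1024 none.

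**Figure D5:**
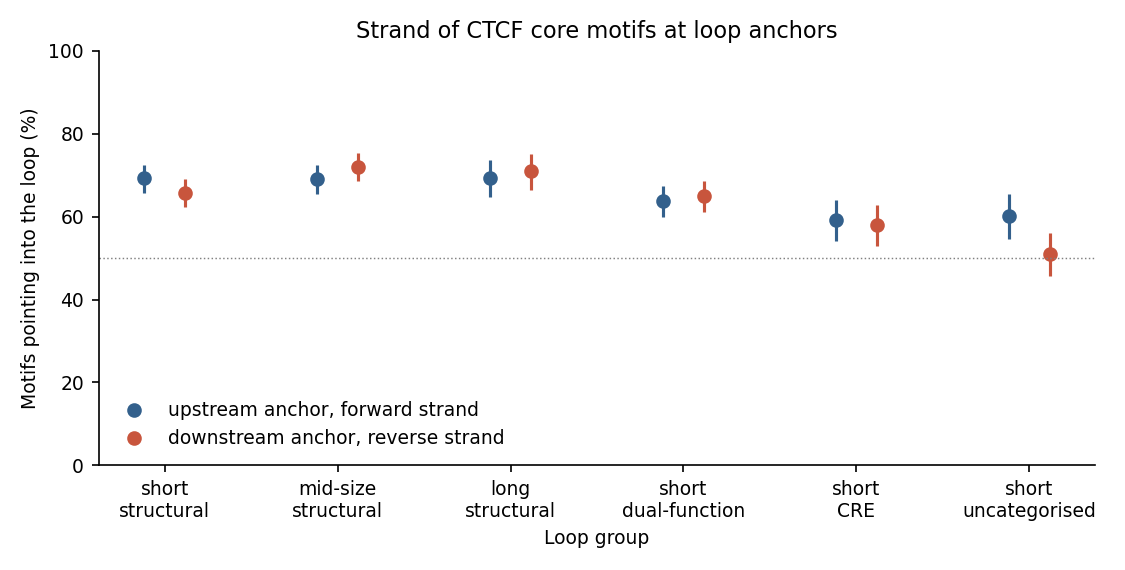
Percentage of CTCF core motifs at loop anchors that point into the loop, for upstream anchors (forward strand, blue) and downstream anchors (reverse strand, red) of 6 loop groups, with 95% Wilson intervals; the dotted line marks 50%. Short structural loops have 69.2% and 65.7%, above the dotted line with their whole intervals.

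Strength varied less with the arrangement of cores than with size. Convergent loops had mid-G1 medians of 2.19 without and 1.22 with auxin, tandem forward loops 1.69 and 1.08, tandem reverse loops 2.00 and 1.10, and divergent loops 1.78 and 1.07. Loops without a core at either anchor had 1.93 and 1.22. The median log2 change was -0.82 in convergent loops and -0.68 in loops without a core, a gap smaller than the SD over chromosomes of the convergent loops, which was 0.29.

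Domain boundaries lay beside the anchors of many of these loops. A boundary is a 10 kb bin where contacts across it are depleted, and its deposited strength, ΔIS, is the highest insulation score nearby minus that at the boundary. Of the short structural loops 1011 had a boundary within 20 kb of 1 anchor midpoint, 153 of both and 865 of neither. Boundaries at both anchors were rarer, at 7.54% (95% Wilson interval 6.47 to 8.77%), than in mid-size loops, at 20.3% (18.5 to 22.3%). The 153 loops with both had mid-G1 medians of 2.50 without and 1.28 with auxin, and the 865 with neither 1.85 and 1.17. Their median log2 changes were -0.92 and -0.66, with SDs over chromosomes of 0.27 and 0.14.

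The 962 boundaries beside these anchors had a median ΔIS of 0.931 without and 0.524 with auxin in mid-G1. Over the 5414 other boundaries the medians were 0.413 and 0.290. The median mid-G1 log2 change was -0.78 (SD 0.16 over chromosomes) beside the anchors and -0.41 (SD 0.07) elsewhere. Beside anchors of mid-size, long and short dual-function loops it was -0.90, -0.87 and -0.71, so such a change was not particular to short structural loops. At a log2 change of -0.5 or lower in mid-G1 were 665 of the 962 boundaries, or 69.1%, beside 49.2% of all boundaries. The share was 75.7% beside mid-size, 71.3% beside long and 63.7% beside short dual-function loops. By the cluster labels of the authors, 53.0% of the 962 were in cluster2, beside 31.9% of all 6376 boundaries, and 23.5% in cluster1, beside 20.4%. Cluster3 held 20.8%, beside 27.2%, cluster4 2.60%, beside 9.25%, and cluster5 0.104%, beside 11.3%. Boundaries beside mid-size and long structural loops had 52.6% and 49.6% in cluster2 and 0 boundaries in cluster5. Of the 5414 other boundaries 718 (13.3%) were in cluster5, which the authors left out as mostly spurious. Those 5414 were also not cleared of boundaries beside anchors of other loop groups.

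Anchors of short structural loops were more often outside gene starts than those of short dual-function loops. The category bears on this, as the authors took peaks of the histone mark H3K27ac near an anchor as CREs, and CREs include promoters. A gene start alone is not a CRE by that rule. Both anchors held a start in 83 short structural loops (4.09%), beside 21.7% of short dual-function loops. Of their 4058 anchor bins, 774 (19.1%) held the start of a protein-coding gene in the GENCODE vM1 annotation of mm9, 1623 (40.0%) an exon but no start, 290 (7.15%) only intron, and 1371 (33.8%) no protein-coding gene. The share with a start was 41.5% in short dual-function and 16.5% in mid-size structural loops. In 149 loops both anchors touched the same gene. The region between the anchor midpoints held no gene start in 236 loops (11.6%), 1 to 3 in 1404 and more in 389. Loops without a start had a median mid-G1 log2 change of -0.52 (SD 0.13 over chromosomes) and loops with 1 to 3 starts one of -0.74 (SD 0.14). The loops without a start were also smaller, with a median of 105 kb against 120 kb, and the part of size in this gap was not tested.

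Many short structural loops were stacked with others. In all, 1164 (57.4%) lay inside a structural loop of over 200 kb, and their median mid-G1 strength without auxin was 2.02, against 1.81 for the other 865. Both anchors lay at anchors of longer structural loops in 63 loops, which had a median of 2.57 without and 1.26 with auxin and a median log2 change of -1.06. They were also the larger ones, with a median of 160 kb. Another short structural loop started where the loop ended, or ended where it started, in 212 loops, whose median change was -0.59, against -0.72 for the other 1817. No anchor was shared with any other loop of the table in 302 loops, so that anchors, and the reads in them, are shared by most of these loops.

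Among single loops, the strongest without auxin in mid-G1 lay on chromosome 5, between 137640001-137650000, outside protein-coding genes, and 137720001-137730000, which held the start of Ache, the acetylcholinesterase gene. In the order of the stages its strength was 4.59, 5.14, 9.37 and 12.4 without auxin, and with auxin 3.23, 4.08, 3.75 and 4.57. Unlike most short structural loops, it stood far above its surroundings in prometaphase in both treatments. A second of the 5 strongest loops enclosed it, from 137610001-137620000 in Muc3, a mucin gene, to 137760001-137770000 in Slc12a9, with 3.96, 6.48, 5.25 and 7.49 without auxin and 4.50, 4.29, 4.96 and 6.30 with auxin.

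A strong loop of 100 kb on chromosome 5, from 76440001-76450000 to 76540001-76550000, both outside protein-coding genes, had 7.11, 7.86, 8.11 and 9.63 without auxin and 6.98, 9.15, 7.00 and 7.93 with auxin. It was strong in all 8 maps, higher at each stage than at the one before without auxin, and weaker with auxin in mid-G1. On chromosome 4, the loop between 130030001-130040000, at the starts of Snrnp40 and Zcchc17, and 130150001-130160000, in an intron of Nkain1, had 6.04, 4.65, 4.80 and 5.53 without auxin and 5.20, 3.77, 3.95 and 4.60 with auxin. It was the only one of the 5 that was stronger in prometaphase than in mid-G1. These 4 loops had prometaphase strengths from 3.96 to 7.11 without and from 3.23 to 6.98 with auxin, where the short structural loops as a whole were near 1. The study's methods describe single very high pixels, seen whatever the stage and treatment, as a source of false calls, and whether these 4 loops are of that kind was not tested.

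The other loop of the 5 started near background. It joined 73820001-73830000 in Cwh43 and 74020001-74030000 on chromosome 5, a bin with the start of Lrrc66 and with a reverse CTCF core in an exon of Sgcb, which encodes a sarcoglycan of the muscle membrane. It had 1.27, 3.72, 3.93 and 6.00 without auxin, and with auxin 1.27, 1.31, 1.51 and 1.80. Its log2 change in mid-G1 was -1.73, against -1.44 for the Ache loop and between -0.28 and -0.25 for the other 3.

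The loops with the lowest mid-G1 log2 change, among those with a strength of at least 2 without auxin, had values from -2.55 to -2.18. The first, on chromosome X between 67620001-67630000 and 67820001-67830000, had 1.03, 2.01, 4.41 and 4.27 without auxin and 2.36, 1.57, 0.968 and 0.730 with auxin, and was thus stronger with than without auxin in prometaphase. On chromosome 10 a loop between exons of Ppm1h, a phosphatase gene, and Mon2 had 1.11, 2.99, 4.13 and 4.96 without auxin and 1.16, 0.758, 0.695 and 0.949 with auxin. The other 3, on chromosomes 6, 8 and 18, had mid-G1 strengths of 2.22, 2.34 and 2.43 without auxin and of 0.434, 0.517 and 0.482 with auxin. All 5 were called only without auxin, as were 91.6% of the short structural loops.

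The loops with the highest mid-G1 log2 change, among those called with auxin, had values from 0.58 to 0.81. The first joined 98880001-98890000 on chromosome 11, at the start of Top2a, the topoisomerase gene of dividing cells, to 99060001-99070000. It had 1.06, 1.38, 1.02 and 1.1 without auxin and 1.26, 1.92, 2.13 and 1.98 with auxin, and was stronger with auxin at all 4 stages. The second, between the start of Nucb1 and an exon of Bcat2 on chromosome 7, had 0.823 without and 1.41 with auxin in mid-G1. The other 3 lay on chromosomes 2 and 7, with mid-G1 strengths between 0.739 and 1.08 without and between 1.14 and 1.80 with auxin, so that all 5 were weak loops without auxin.

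Around genes of the erythroid list, 15 short structural loops were found, at 8 of the 29 list genes that the annotation holds. All 15 were weaker with auxin in mid-G1, beside 96.0% of all short structural loops, and 12 of 15 were past the fold, beside 69.0%. They had a median strength of 2.62 without and 1.31 with auxin and a median log2 change of -1.0, beside -0.70 over all 2029 short structural loops.

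On chromosome 15 a loop of 130 kb from 103010001-103020000 to 103140001-103150000 enclosed Nfe2, an erythroid transcription factor gene, and had 1.26, 2.61, 4.02 and 3.54 without auxin and 1.02, 1.64, 1.37 and 1.62 with auxin. It peaked in early-G1 without auxin. On chromosome X a loop of 100 kb between the starts of Pcsk1n and Glod5 enclosed Gata1, the gene that G1E cells lack in functional form, and had 1.2, 2.14, 2.66 and 2.89 without auxin and 1.4, 1.06, 1.01 and 0.900 with auxin. Its log2 change of -1.68 in mid-G1 was the lowest among the loops of the list described here.

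The alpha globin genes, Hba-a1 among them, lay inside 4 short structural loops of chromosome 11 that shared or neighboured their downstream anchors. The strongest of them, from an exon of Il9r at 32080001-32090000 to 32220001-32230000, had 0.888, 2.24, 2.61 and 3.08 without auxin and 1.30, 1.39, 1.21 and 1.54 with auxin. The next, from an exon of Rhbdf1 at 32110001-32120000, had 2.94 without and 1.39 with auxin in mid-G1, and the other two had 2.50 and 2.02 without and 1.16 and 1.25 with auxin. These loops are not independent of each other. On chromosome 8 a loop of 180 kb ended in an exon of Ank1, the gene of the red cell membrane skeleton protein ankyrin, where the bin holds a forward core in an intron. It had 1.55, 1.88, 2.52 and 2.85 without auxin and 1.24, 1.56, 1.69 and 1.62 with auxin.

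Short structural loops also crossed CRE loops, where a loop counts as crossing if the CRE loop encloses exactly 1 of its 2 anchor midpoints. Of the short structural loops 764 (37.7%) crossed at least 1 CRE loop, with up to 11 crossed by a single one, and 200 enclosed at least 1. The 1057 crossed CRE loops had a median mid-G1 log2 change of 0.14 (SD 0.11 over chromosomes), and 64.6% were stronger with auxin, beside -0.02 and 47.5% over all 4642 CRE loops. Of the 1057, 44.2% were called only with auxin, in the maps that also give the change, against 30.4% of all CRE loops, and the part of that in the change was not tested. Where short structural loops crossed a CRE loop and no longer one did, 461 CRE loops had a median of 0.12, with an SD of 0.15. The 1170 crossed by longer structural loops and by no short one had a median of 0.04 (SD 0.09), and 54.2% were stronger with auxin. The 2415 CRE loops that no structural loop crossed had a median of -0.10 (SD 0.03), 36.8% were stronger with auxin, and 20.2% were called only with auxin. Their median size was 140 kb, against 270 kb for the 1057 crossed by a short structural loop, and the part of size was not tested. The 179 CRE loops that lay inside a short structural loop and were crossed by none had a median of -0.25 (SD 0.20), 19.6% were stronger with auxin, and 8.38% were called only with auxin. These 179 were smaller still, with a median of 80 kb, and the part of size was not tested here either.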

How the data were processed

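The authors mapped G1E-ER4 cells by in situ Hi-C in 8 conditions, of which the labels give 18 libraries; 4 triptolide libraries were not used here. The authors aligned reads to mm9 (the submitters' processing notes name Bowtie2), merged the libraries of each condition, and called loops at 10 and 25 kb with a modified HICCUPS. Per loop, the deposited value is a ratio, the mean over 9 pixels of observed to donut-expected contacts, and per boundary the deposited value is a signal, ΔIS. Loop categories, calls and clusters of boundaries are labels by the authors. Depth per map is not in the files used, and no per-sample column was left unused.

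Members and gene lists were chosen with earlier results of these data known. No pseudocount entered the log2 ratios of +auxin to -auxin, and no test was run, as each condition has 1 value. Wilson intervals (95%) cover counting error only and treat loops as independent, although loops share anchors. Every loop position fell inside its chromosome in the given mm9 (NCBIM37) sequence. Motifs were searched there and genes taken from GENCODE vM1. Named loops were, among loops above 0 in all 8 maps, the 5 strongest in mid-G1 without auxin, the 5 with the lowest mid-G1 change among those of strength 2 or more, the 5 with the highest among those called with auxin, the 3 strongest in prometaphase, the 3 strongest in ana/telophase, the 3 with the largest rise from early-G1 to mid-G1, and loops at 30 erythroid genes, of which the 6 strongest are described, except 1 that is not reported here. The prometaphase, ana/telophase and late-rise choices named no loop that was not among the 5 strongest. Alternatives covered the pseudocount, size, summit width, chromosome 3, the mean, centring, distances and the motif. Functions were tested on simulated data. Python 3.11.15, numpy 2.4.6, pandas 2.3.3 and scipy 1.17.1 were used.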

Additional observations from a re-analysis of the deposited data

How the results depend on the processing

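No paired analysis was possible because the columns of the tables used here are of merged maps and carry no replicate, and for the same reason no replicate was left out. Of 117 alternative values, 79 stayed within the spread of the reported value, or, for the number of crossed CRE loops, within 1.5 times of it. The other 38 did not, and 0 changed direction. Limited to loops of at least 100 kb, the median strength was 1.08, 1.56, 1.91 and 2.14 over the 4 stages without auxin and 1.02, 1.14, 1.22 and 1.26 with auxin. The mean in place of the median gave 1.52 in ana/telophase and 1.85 in early-G1 without auxin.

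The median log2 change in ana/telophase, early-G1 and mid-G1 was -0.29, -0.43 and -0.52 with a pseudocount of 0.5. It was -0.25, -0.26 and -0.37 in loops called in both treatments. Centred on the loops outside both CTCF categories, it was -0.34, -0.51 and -0.57. The share past the fold over the 4 stages was 4.39%, 22.5%, 42.7% and 52.7% with the pseudocount, and 1.38%, 6.31%, 18.1% and 27.4% at a log2 change of -1 or lower. With 10 kb summits only, it was 43.2%, 61.3% and 71.8% from ana/telophase on.

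The difference in mid-G1 change from mid-size and from long structural loops was 0.03 in each case at a strength of 1.5 to 3, and 0.63 from long loops with 10 kb summits only. By a strength of 1.5 in place of the calls, 71.1% of the loops present in either treatment were present only without auxin. A boundary lay at 1 or both anchors in 35.6% of the loops within 10 kb and 76.8% within 40 kb. The convergent share was 41.6% in windows of 30 kb, and 586 CRE loops were crossed by loops of mid-G1 strength 2 or more. With anchor midpoints at least 20 kb inside and outside, 896 were crossed. The causes of these shifts were not tested. Contact depth per loop is unknown, so no error of a single loop was given.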

Other observations

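Of the 2029 short structural loops, 80 or 3.94% had a prometaphase strength of 1.5 or more without auxin, beside 9.37% of all loops, and 16 of them reached it with auxin as well. At a strength of 2 or more these counts were 12 and 9, and at 3 or more 6 and 5. The 9 loops at 2 or more in both treatments had a median strength of 3.95 in prometaphase without auxin, and in mid-G1 of 4.46 without and 3.92 with auxin. Their median mid-G1 log2 change was -0.19, beside -0.70 over all short structural loops. Their median size was 110 kb, and 6 of the 9 were called only without auxin, beside 91.6% of all short structural loops and 71.1% of all loops.

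Prometaphase strength went with the level later on. With the short structural loops ordered by prometaphase -auxin strength and split into 4 groups of 507 or 508, the median mid-G1 strength was 1.52, 1.89, 1.97 and 2.31 from the lowest to the highest group without auxin, and 0.956, 1.19, 1.24 and 1.34 with auxin. Size moved with these levels, as the 460 loops of 70 to 80 kb with 10 kb summits had medians of 0.802 in prometaphase and 1.35 in mid-G1 without auxin, and the part of size was not tested. The median mid-G1 log2 change in the 4 groups was -0.65, -0.68, -0.71 and -0.78. Spearman's rho between the prometaphase strengths of both treatments was 0.38 over all 2029 loops and 0.12 over the 1406 loops of at least 100 kb, and Pearson's r was 0.65 and 0.61, where the points share the position of the loops in the genome. Mid-size structural loops had 0.05 and 0.12.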
